A study of Mus musculus with 14 samples.

Results

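Ribosome-bound RNA pulled down from Aldh1l1-Cre cells was compared with the whole lysate of the same retinae in old mice of 24 months. The pull-down is translating ribosome affinity purification (TRAP): an antibody against GFP captures ribosomes that carry an EGFP-tagged ribosomal protein, and the RNA on them is sequenced. All mice, old and young, carried 1 genotype, Aldh1l1-Cre/ERT2 with the NuTRAP allele, and had been given tamoxifen. Cre is therefore driven by the promoter of Aldh1l1, a folate enzyme of astrocytes, and only cells that recombined carry tagged ribosomes. Each library came from 1 animal with 2 retinae pooled, and the input is 150 µL of the cleared supernatant kept before the pull-down. The groups were old TRAP (animals 214, 215, 521 and 523), old input (animals 214, 215 and 523), young TRAP at 4 months (animals 1382, 1383 and 1386) and young input (the same 3 young animals). Old mice gave 7 of the 13 libraries with values, and the input of animal 521 was not analysed here. A pull-down from mice without Cre was not analysed here either, so RNA that sticks without a tag was not measured.

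Müller glia are the radial glia that span the retina. They clear glutamate and potassium from around the neurons, recycle retinoids for cones and become reactive when the tissue is stressed. Astrocytes lie in the nerve fibre layer with the vessels. The retinal pigment epithelium lies against the photoreceptors outside the neural retina and runs the visual cycle, the set of reactions that turns all-trans-retinal back into the 11-cis form that opsins need.

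Values are log2 levels that the authors normalized and set against a baseline for each gene, so a difference of 1 is a 2-fold difference. The input libraries lie around that baseline for nearly every gene, so an input level near 0 says nothing about cell type. TRAP and input come from separately deposited tables, and no source states that they were scaled as one set. All differences below are therefore set across 2 tables, for the 14384 genes that both hold. The 7 old libraries had medians over these genes between -0.02 and 0.00, and the median TRAP minus input difference over all genes was -0.02. Sequencing depth is unknown, and mRNA that is bound to fewer ribosomes cannot be told apart from mRNA that is less abundant in the tagged cells. In bulk samples like these, fewer cells of a type and less RNA per cell cannot be told apart.

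To show what stretches of DNA stand before genes at both ends of the comparison, 4 promoters are printed 5′ to 3′ on the strand of the gene. They are RefSeq sequences of build GRCm38.p6, from 250 bases before to 50 bases after the start RefSeq gives, from which all distances are counted. For Rbp3 and Gnat2 that start is not the one in the deposited tables, whose coordinates are given with each gene's values. Capitals mark matches on either strand to TAATCC, the core bound by the photoreceptor factors CRX and OTX2, or to GGAATG, the core bound by TEAD factors. Rpe65 and Kcnj13 are pigment epithelium genes that were higher in TRAP, and Rbp3 and Gnat2 are photoreceptor genes that were lower. Rpe65 lies on the plus strand at chr3:159598931-159599230, and its match begins 42 bases before the start. Kcnj13 lies on the minus strand at chr1:87394680-87394979, with a match 19 bases before the start. Rbp3 lies on the plus strand at chr14:33953753-33954052, with a match 69 bases before the start. Gnat2 lies on the plus strand at chr3:108092816-108093115, with matches 50 and 19 bases before the start.
Rpe65: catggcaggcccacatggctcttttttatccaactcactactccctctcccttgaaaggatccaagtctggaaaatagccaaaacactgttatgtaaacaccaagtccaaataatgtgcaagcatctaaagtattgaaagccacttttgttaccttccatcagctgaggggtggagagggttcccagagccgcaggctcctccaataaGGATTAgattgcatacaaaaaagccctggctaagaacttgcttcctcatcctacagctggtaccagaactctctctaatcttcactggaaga
Kcnj13: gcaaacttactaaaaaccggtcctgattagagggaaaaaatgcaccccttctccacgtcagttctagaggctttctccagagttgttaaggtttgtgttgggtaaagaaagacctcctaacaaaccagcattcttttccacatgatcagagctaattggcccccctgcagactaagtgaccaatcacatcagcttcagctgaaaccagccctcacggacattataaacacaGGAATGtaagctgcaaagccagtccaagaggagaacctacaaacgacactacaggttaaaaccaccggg
Rbp3: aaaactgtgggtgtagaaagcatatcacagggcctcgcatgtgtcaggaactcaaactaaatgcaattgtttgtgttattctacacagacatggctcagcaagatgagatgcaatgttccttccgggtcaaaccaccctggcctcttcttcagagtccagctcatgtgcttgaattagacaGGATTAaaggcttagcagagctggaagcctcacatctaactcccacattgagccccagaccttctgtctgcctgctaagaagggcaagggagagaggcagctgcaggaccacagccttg
Gnat2: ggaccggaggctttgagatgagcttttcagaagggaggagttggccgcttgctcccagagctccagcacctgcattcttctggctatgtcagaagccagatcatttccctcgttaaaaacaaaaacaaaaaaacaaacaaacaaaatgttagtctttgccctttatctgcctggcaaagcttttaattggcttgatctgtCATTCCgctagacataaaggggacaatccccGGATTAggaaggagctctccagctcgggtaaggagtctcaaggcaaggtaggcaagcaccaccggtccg

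The RefSeq table held promoters for 1594 of the 2019 genes at least 2-fold higher in TRAP and for 663 of the 900 genes at least 2-fold lower, and some genes have several. GGAATG, on either strand, stood in 17.1% of the 2060 promoters of the higher genes, in 12.4% of the 842 promoters of the lower genes, in 11.5% of the 11570 promoters of all other genes tested and in 14.7% of every promoter in the table. TAATCC stood in 6.02% of the promoters of the higher genes, in 6.06% of those of the lower genes, in 5.81% of those of all other genes tested and in 7.06% of every promoter. ACAATG, a core bound by SOX factors, stood in 7.33% of the promoters of the higher genes, in 6.18% of those of the lower genes, in 7.64% of those of all other genes tested and in 12.6% of every promoter. No 2 matches overlap in the 4 printed promoters, and a match is not a binding site.

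The pull-down separated the genes broadly. In old retina, 4474 genes (31.1% of those tested) were higher in TRAP than in input and 4286 genes (29.8%) were lower. The test was limma with the animal as a random block and a Benjamini-Hochberg adjusted p under 0.05. These shares of all genes are the background for every list count below. Lists and their members were chosen with earlier results of these data known, so their counts and ranges are a description. Differences of at least 2-fold were found for 2019 genes (14%) in the higher direction and for 900 genes (6.26%) in the lower direction. Of the 14384 genes, 4539 had every TRAP library above every input library and 4399 had every one below. A lack of overlap was therefore common. Quantile normalization, which gives every library the same spread, called 1950 genes higher and 1887 lower, and its counts are given beside many of the lists. The SD over genes was 0.27 to 0.39 in old input libraries and 0.85 to 1.06 in old TRAP libraries. Quantile normalization therefore stretches input values and shrinks TRAP values, so it cannot tell a fragile difference from an effect of that rescaling. The largest differences lay on the higher side: the 99th percentile of the difference over all genes was 2.85 and the 1st percentile was -1.70. Between any 2 of the 4 TRAP libraries, Pearson's r over the 14384 genes was 0.905 to 0.934, a description only, since all values share the baseline.

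Aldh1l1, whose promoter drives Cre, was itself higher in TRAP. Its log2 values (animals 214, 215, 521 and 523) were 3.35, 3.46, 3.04 and 2.80 in TRAP, against 0.10, 0.05 and -0.19 in input (animals 214, 215 and 523). Every TRAP library lay above every input library, and animals 214 and 215 were higher than 521 and 523. The difference was 3.18 ± 0.21 (SE), with an adjusted p of 7.56e-05 by limma (gene 107747, chromosome 6 from 90550848 to 90599171, mm10). The same order of libraries is used for all values that follow, and ± is the SE of a difference unless an SD is named.

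Rpl10a, the ribosomal protein that carries the EGFP tag in the transgene, had TRAP values of 2.05, 2.06, 1.70 and 1.61, against 0.12, 0.03 and -0.03 in input. Its difference of 1.82 ± 0.14 was the highest of the 78 ribosomal protein genes measured, which had a median difference of -0.10. Of these 78 genes, 12 were higher and 21 were lower, against 31.1% and 29.8% of all genes tested. Without the input of animal 214 or that of animal 215, 6 were higher. With the animal as a fixed block 7 were higher and 12 lower, and under quantile normalization 3 and 6. Reads of the transgene and of the endogenous gene were not separated in the deposited values, and several ribosomal protein genes have near-identical pseudogenes.

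**Figure D1:**
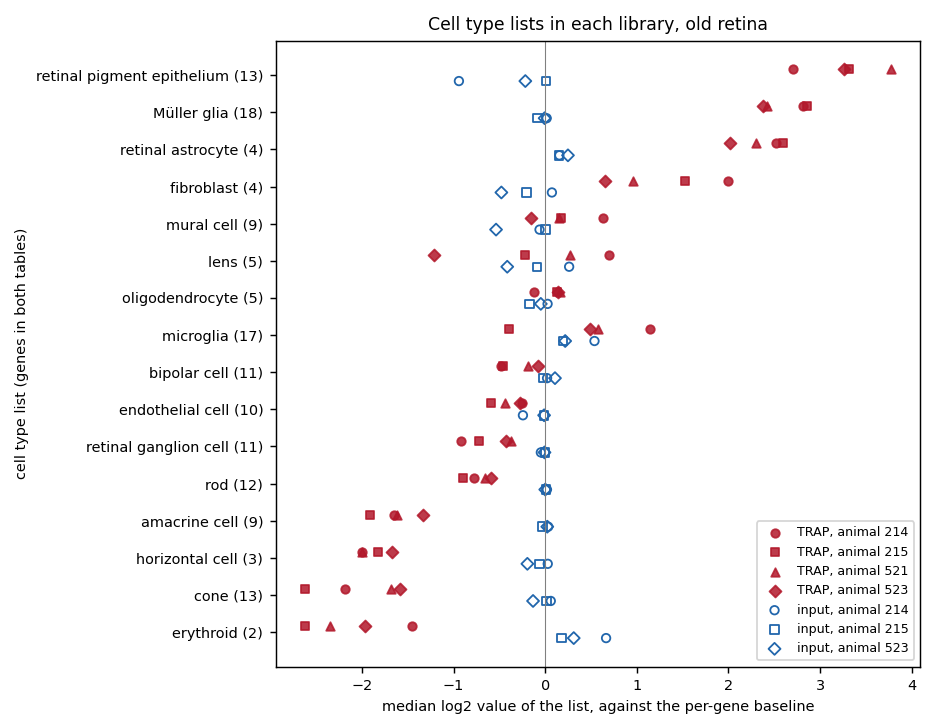
Median log2 value of 16 cell type lists in each old library, with TRAP as filled red and input as open blue symbols, 1 symbol shape per animal, and the number of genes measured in brackets. TRAP medians of the Müller glia list lie between 2.38 and 2.86, those of the rod list lie below all 3 inputs, and those of the microglia list lie on both sides of the inputs.

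Müller glia genes were the most uniform of the glial groups, as a description of the members chosen. All 18 genes of the list were at least 2-fold higher in TRAP, with differences from 2.28 to 2.98 and a median of 2.60. The list's median was 2.82, 2.86, 2.42 and 2.38 in the TRAP libraries, against 0.02, -0.08 and -0.01 in the input libraries. No TRAP median came near an input median, and animals 214 and 215 again were the higher pair. Over all genes tested the median difference was -0.02, and 344 genes (2.39%) had a larger difference than the list's median.

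Rlbp1, the retinaldehyde-binding protein of Müller glia, had TRAP values of 2.78, 2.92, 2.51 and 2.43, against -0.04, 0.04 and 0.12 in input (gene 19771, chromosome 7 from 79374870 to 79387027). Its difference was 2.63 ± 0.17 (adjusted p = 7.56e-05, limma). Within animals 214, 215 and 523 the paired difference was 2.82, 2.88 and 2.32, so all 3 pairs went the same way by a similar amount. Lhx2, a homeodomain factor needed for Müller glia, had the largest difference of the list, 2.98 ± 0.20. Dkk3, a secreted Wnt modulator, had the smallest, 2.28 ± 0.16.

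Astrocyte genes behaved like those of Müller glia, with all 4 at least 2-fold higher and a median difference of 2.35. Gfap, the intermediate filament of astrocytes and of reactive Müller glia, had TRAP values of 3.79, 3.70, 3.01 and 3.20, against 0.41, 0.37 and 0.24 in input. Its difference was 3.09 ± 0.27 (adjusted p = 0.000103, limma). Pdgfra, the receptor that recruits retinal astrocytes, differed by 2.38 ± 0.18. S100b, a calcium-binding protein of astrocytes, differed by 2.32 ± 0.21. Pax2, a transcription factor of optic nerve astrocytes, differed by 1.78 ± 0.19, the lowest of the 4. The groups of libraries did not overlap for any of them.

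Pigment epithelium genes stood higher than any glial list, although the tissue was retina. Of 13 genes measured, 11 were at least 2-fold higher in TRAP, with a median difference of 3.21 over the 13. The exceptions were Best1, a chloride channel, at 0.41 ± 0.30, and Mitf, the pigment cell transcription factor, at -0.21 ± 0.16 (adjusted p = 0.266 and 0.292, limma). The difference of each of the other 11 genes was at least 2.77, that of Rrh, an opsin of the pigment epithelium, and the highest was 4.44 ± 0.44 for Kcnj13, a potassium channel of its apical membrane.

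The pigment epithelium genes did not follow the library order of the Müller glia genes. Rpe65, the isomerase of the visual cycle, had TRAP values of 2.70, 3.61, 4.45 and 3.86, against -1.18, 0.01 and -0.01 in input (gene 19892, chromosome 3 from 159599181 to 159625307). Animal 521 was the highest TRAP library, and animal 214 was the lowest in TRAP and in input alike. Its difference was 4.03 ± 0.46 (adjusted p = 0.000274, limma). The list's median showed the same, at 2.70, 3.31, 3.78 and 3.26 in TRAP, against -0.94, 0.01 and -0.22 in input. Animal 214 was lowest and animal 521 highest among the TRAP libraries in 11 of the 13 genes (84.6%), against 7.64% of all genes. It was so in 3.81% of the genes at least 2-fold higher, but in 6 of 11 ganglion cell genes (54.55%), a list mostly lower in TRAP. This order was picked out from these same values, so its share is a description. All 18 Müller glia genes had animals 214 and 215 above 521 and 523. So did 72 of 78 ribosomal protein genes (92.3%), 79.0% of the genes at least 2-fold higher and 34.2% of all genes. How much pigment epithelium each dissection held was not measured.

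Genes of the visual cycle were split. Of 16 genes, 9 were higher in TRAP, each by at least 2-fold, and 7 were lower, none by 2-fold (2 under quantile normalization). The higher ones act in pigment epithelium or Müller glia, among them Lrat, which esterifies retinol (4.09 ± 0.52), Rpe65, Rdh5, the 11-cis-retinol dehydrogenase (4.01 ± 0.35), Rgr, a retinal G protein-coupled receptor (4.00 ± 0.35), Stra6, the retinol-binding protein receptor (3.21 ± 0.38), Rrh, Rlbp1 and Rdh10, a retinol dehydrogenase (2.48 ± 0.13). Among the lower ones, Rbp3, the retinoid carrier that photoreceptors secrete, had TRAP values of -0.98, -1.18, -0.77 and -0.80, against 0.04, 0.01 and -0.17 in input (gene 19661, chromosome 14 from 33954022 to 33964216). Its difference was -0.90 ± 0.12 (adjusted p = 0.000563, limma). Rdh12 and Rdh8, the retinal dehydrogenases of photoreceptors, differed by -0.77 ± 0.11 and -0.73 ± 0.09, and Abca4, their retinoid flippase, by -0.46 ± 0.12, with an adjusted p of 0.0513 when the input of animal 215 was left out. Dhrs3 and Rdh11, also retinoid dehydrogenases, differed by -0.56 ± 0.09 and -0.35 ± 0.09. Rbp4, the plasma retinol carrier, was the lowest at -0.99 ± 0.21, with input values of 0.43, 1.04 and 0.03 that spread more than those of the others.

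**Figure D2:**
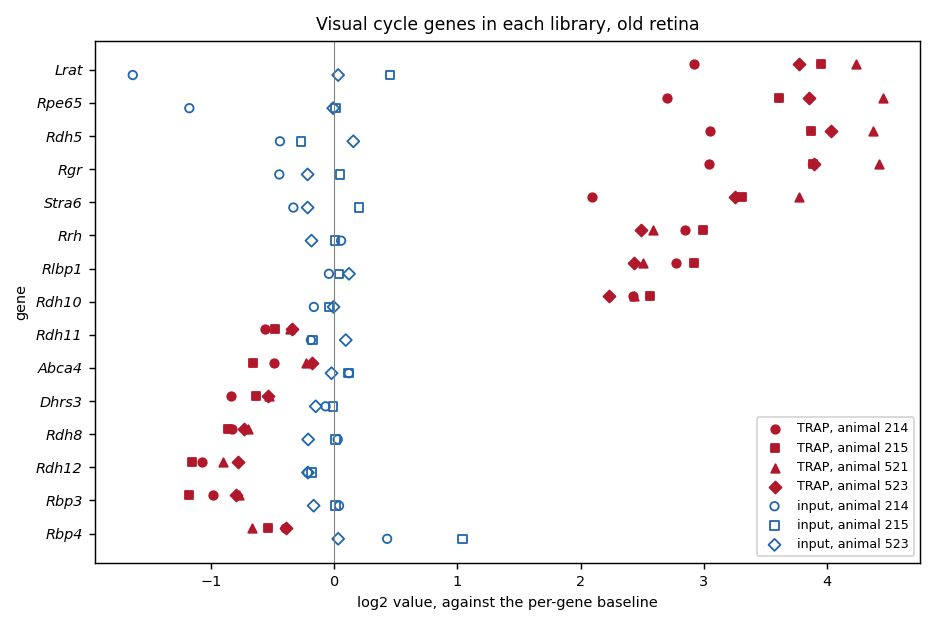
Log2 values of visual cycle genes in each old library, with TRAP as filled red and input as open blue symbols, 1 shape per animal, and genes sorted by their TRAP minus input difference. The 8 genes at the top lie at 2.09 or above in every TRAP library, and for Lrat, Rpe65, Rdh5, Rgr and Stra6 the TRAP library of animal 214 is the lowest and that of animal 521 the highest.

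Rod genes were lower in TRAP by a small and even amount. All 12 genes passed the threshold in the lower direction, none by 2-fold, with a median of -0.76 and a range from -0.51 to -0.90. With a minimum fold of 1.5 in the test, none of the 12 passed. Gngt1, the gamma subunit of rod transducin, had TRAP values of -0.88, -0.96, -0.70 and -0.63, against 0.01, -0.01 and 0.33 in input (gene 14699, chromosome 6 from 3994012 to 3997436). Its difference, the lowest of the list, was -0.90 ± 0.11 (adjusted p = 0.000447, limma). Nrl, the rod fate factor, differed by -0.83 ± 0.09. In all 12 genes animals 214 and 215 lay below 521 and 523 in TRAP, the mirror of the Müller glia genes. They did so in 25.9% of all genes and in 60.6% of the genes at least 2-fold lower. Of all genes tested, 1215 (8.45%) had a lower difference than the lowest rod gene.

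Cone genes were lower by much more than rod genes. Of 13 genes, 10 passed the threshold in the lower direction, 8 of them by at least 2-fold, and the median was -2.13. Gnat2, the alpha subunit of cone transducin, had TRAP values of -2.84, -3.11, -2.28 and -2.27, against 0.11, 0.13 and -0.29 in input (gene 14686, chromosome 3 from 108093068 to 108101285). Its difference was -2.62 ± 0.45 (adjusted p = 0.00176, limma), with the 4 TRAP libraries all far below the 3 inputs. Opn1sw, the short-wavelength cone opsin, differed by -3.34 ± 0.78, and Gngt2, the gamma subunit of cone transducin, by -2.78 ± 0.71. Leaving out 1 input library raised the adjusted p of Opn1sw to as much as 0.0806 and that of Gngt2 to as much as 0.0803, without a change of sign. With the animal as a fixed block, which drops animal 521, their adjusted p-values were 0.056 and 0.0619. Pde6c and Cnga3, the catalytic phosphodiesterase subunit and a channel subunit of cones, differed by -2.13 ± 0.27 and -2.17 ± 0.36.

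The other 3 cone genes did not pass the threshold. Pde6h, the inhibitory phosphodiesterase subunit of cones, had TRAP values of -3.90, -4.21, -3.33 and -3.41, against -0.13, 0.02 and -0.16 in input. Opn1mw, the medium-wavelength opsin, had TRAP values of -3.18, -3.73, -3.22 and -2.87, against -0.24, -0.01 and -0.38 in input. The fraction groups did not overlap for either gene, but the SE was wide, at 2.53 for Pde6h and 1.33 for Opn1mw (adjusted p = 0.248 and 0.0829, limma). The fit sets its spread by a trend on each gene's mean over the old libraries. On values set against a baseline per gene, that mean moves with the TRAP minus input difference and is not a level of abundance. Without that trend the adjusted p-values of Pde6h and Opn1mw were 4.07e-05 and 4.6e-05 (limma). Ccdc136 differed by -0.11 ± 0.07, with overlapping libraries.

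Phototransduction genes of both photoreceptors were lower without exception in sign, and 25 of 26 passed the threshold, with a median of -0.77. With a minimum fold of 1.5 in the test, 7 of the 26 passed. Between rods and cones in size stood Rgs9bp, the anchor of the complex that turns transducin off, at -1.56 ± 0.13. Grk1, a receptor kinase of photoreceptors, differed by -0.92 ± 0.12, and Rcvrn, recoverin, its calcium-dependent inhibitor, by -0.88 ± 0.11. In all 26 genes the TRAP libraries of animals 214 and 215 were below those of 521 and 523, as in 25.9% of all genes.

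Inner retinal neurons were lower as well, amacrine and horizontal cells more than ganglion and bipolar cells in these medians. All 9 amacrine genes were lower, 8 by at least 2-fold, with a median of -1.67. Slc18a3, the vesicular acetylcholine transporter of starburst cells, differed by -1.77 ± 0.26, and Gad1, which makes GABA, by -1.72 ± 0.17. All 3 horizontal cell genes were at least 2-fold lower, with a median of -1.77. Lhx1, a LIM homeodomain factor of horizontal cells, had TRAP values of -2.00, -2.23, -2.00 and -2.35, against -0.04, -0.06 and 0.04 in input, a difference of -2.13 ± 0.22 (adjusted p = 0.000189, limma).

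Ganglion cell genes were lower in 9 of 11 cases, none by 2-fold, with a median of -0.62. Under quantile normalization 2 were lower and the median was -0.35, and with a minimum fold of 1.5 in the test none passed. Nefh, the heavy neurofilament of their axons, differed by -0.80 ± 0.12, and Pou4f2, a fate factor, by -0.78 ± 0.18. Bipolar genes were mixed, with 7 lower and 1 higher of 11 and a median of -0.37, and 3 were lower without the input of animal 214 or under quantile normalization and 4 without the TRAP library of animal 214 or 215. Grik1, a kainate receptor of OFF bipolar cells, was lowest at -1.52 ± 0.19, and Gpr179, a partner of the mGluR6 cascade of ON bipolar cells, was higher at 0.50 ± 0.12. Of 18 synapse genes, 17 were lower, with a median of -0.89. Syt1, the calcium sensor of vesicle release, had TRAP values of -1.32, -1.44, -1.09 and -1.01, against -0.02, 0.02 and 0.07 in input, a difference of -1.24 ± 0.12.

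**Figure D3:**
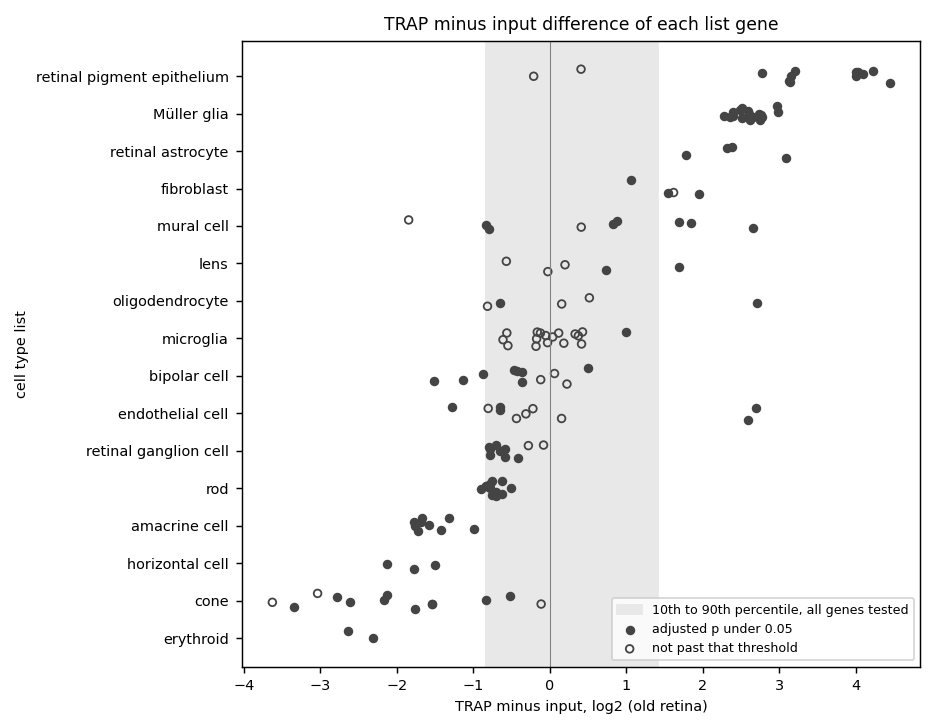
TRAP minus input difference of each measured gene of 16 cell type lists in old retina, in log2, with filled points past an adjusted p of 0.05 and open points not past it. The grey band runs from the 10th to the 90th percentile of all 14384 genes, -0.83 to 1.41. All 18 Müller glia genes lie right of the band, the rod genes lie at or near its lower edge, and most cone, amacrine and horizontal cell genes lie left of it.

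Transcription factors divided in the same way. All 19 factors and Notch genes of glia and progenitors were higher in TRAP, 16 by at least 2-fold, with a median of 2.35. Under quantile normalization 14 were higher. After Lhx2 came Id3, an inhibitor of basic helix-loop-helix factors, at 2.97 ± 0.33, and Sox8 at 2.82 ± 0.19. Sox2 differed by 2.59 ± 0.18, the receptors Notch2 and Notch1 by 2.53 ± 0.17 and 2.35 ± 0.15, and Hes5, a Notch target, by 2.41 ± 0.21. Pax6 and Six3, which amacrine and ganglion cells also use, had the smallest differences, 0.52 ± 0.09 and 0.46 ± 0.08.

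Of 19 neuronal factors, 17 were lower and none was higher, with a median of -1.02. Onecut1, a horizontal cell factor, differed by -1.77 ± 0.51 but had an adjusted p of 0.0683 without the input of animal 215, and Tfap2a, an amacrine factor, by -1.76 ± 0.14. Neurod1, a photoreceptor and amacrine factor, differed by -1.49 ± 0.12. Crx, the factor that drives photoreceptor genes, had TRAP values of -1.08, -1.23, -0.85 and -0.86, against -0.03, -0.01 and 0.09 in input, a difference of -1.02 ± 0.11. Otx2 differed by -0.88 ± 0.13. It serves photoreceptors, bipolar cells and pigment epithelium, and its libraries did not overlap, as for many genes tested.

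The homeostatic tasks of Müller glia were largely on the higher side. All 9 genes of glutamate and GABA handling were higher, 6 by at least 2-fold, with a median of 1.83. Slc6a13, a GABA transporter, differed by 3.37 ± 0.24. Slc1a3, the glial glutamate transporter GLAST, had TRAP values of 2.86, 2.86, 2.50 and 2.37, against -0.09, -0.17 and -0.08 in input, a difference of 2.76 ± 0.17 (gene 20512, chromosome 15 from 8634124 to 8710807). Glul, glutamine synthetase, differed by 2.39 ± 0.14 (adjusted p = 7.56e-05, limma).

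Genes that move potassium, water and acid were higher in 9 of 11 cases, with a median of 1.12. Under quantile normalization, however, 6 were higher, and Car2 and Slc12a2 turned sign. Kcnj10, the Kir4.1 channel that takes up potassium, differed by 2.74 ± 0.19, while Kcnj2, the Kir2.1 channel, was lower at -1.62 ± 0.16. Aqp4, the water channel of glial endfeet, differed by 2.60 ± 0.20. Car14, a membrane carbonic anhydrase, differed by 2.60 ± 0.15.

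Genes of serine synthesis were higher in TRAP. Phgdh, its first enzyme, differed by 2.93 ± 0.27, Psat1, the second, by 2.62 ± 0.18, and Psph, the last, by 1.35 ± 0.15. Phgdh had TRAP values of 2.02, 2.43, 2.40 and 2.20, against -1.30, -0.66 and -0.05 in input, where animal 214 was lowest in both fractions. Of the 9 serine and one-carbon genes, 6 were higher and 2 were lower, against 31.1% and 29.8% of all genes tested. Shmt1 and Mthfd2, which pass on one-carbon units, were the lower ones at -0.65 ± 0.23 and -0.58 ± 0.17, and each lost its call when some single libraries were left out, with adjusted p-values of up to 0.11 and 0.0759.

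Glycolysis genes were called in both directions. Of 21 genes, 7 were higher and 11 were lower, with a median of -0.22, where 31.1% of all genes were higher and 29.8% were lower. Under quantile normalization 5 were higher and 7 lower. Pygb and Pygl, glycogen phosphorylases, were highest at 2.42 ± 0.16 and 2.32 ± 0.21. Eno1 and Aldoc, the enolase and aldolase forms of glia, differed by 1.11 ± 0.11 and 1.06 ± 0.11. Their neuronal or ubiquitous counterparts Eno2 and Aldoa differed by -0.87 ± 0.13 and -0.49 ± 0.08. Hk2, the hexokinase of photoreceptors, differed by -0.79 ± 0.12. Ldhb, which favours pyruvate, was higher at 0.76 ± 0.10, and Ldha, which favours lactate, was lower at -0.66 ± 0.09. Respiratory chain genes differed little, with 1 higher and 8 lower of 20 (none and 4 under quantile normalization) and a median of -0.15. Cox5a, a subunit of cytochrome oxidase, was lowest at -0.51 ± 0.07.

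Of 19 lipid genes, 7 were higher and 7 were lower, shares near those of all genes (31.1% and 29.8%). Apoe, the lipid carrier that glia secrete, had TRAP values of 2.70, 2.76, 2.46 and 2.39, against 0.01, -0.0015 and 0.24 in input, a difference of 2.49 ± 0.16. The regulators Srebf1 and Srebf2 were higher at 0.82 ± 0.10 and 0.73 ± 0.10. The cholesterol synthesis enzyme Fdps was lower at -0.77 ± 0.10.

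Antioxidant genes were higher in 16 of 17 cases (11 under quantile normalization), 13 by at least 2-fold, with a median of 1.88. Gstm1, a glutathione transferase, differed by 2.78 ± 0.20, Prdx6, a peroxiredoxin, by 2.78 ± 0.18, and Gstt1, another transferase, by 2.72 ± 0.19. Mt2 and Mt1, metallothioneins, differed by 2.29 ± 0.33 and 1.88 ± 0.25. Sod2, the mitochondrial superoxide dismutase, did not pass, at -0.14 ± 0.05 (adjusted p = 0.0581, limma).

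Genes of reactive gliosis were mostly higher in TRAP. Of 16 genes in both tables, 15 were higher, each by at least 2-fold, with a median of 2.62. Serpina3n, a serpin used as a marker of reactive astrocytes, had TRAP values of 4.54, 4.12, 3.42 and 3.65, against 1.13, 0.86 and 0.56 in input (gene 20716, chromosome 12 from 104406708 to 104414329). Its difference was 3.10 ± 0.42 (adjusted p = 0.000627, limma), and its input values were themselves above the baseline. Osmr, the oncostatin M receptor, differed by 3.06 ± 0.26. Lif, the cytokine that signals retinal damage to Müller glia in mouse, had TRAP values of 4.77, 3.43, 3.41 and 3.03, against 1.48, -0.93 and 1.35 in input, a difference of 3.03 ± 0.68. Its input libraries spread by more than 2 units, the widest among the genes named in this paragraph. Quantile normalization left 6 of the 16 higher and 1 lower, with a median of 1.00, and turned the signs of Stat3 and Socs3.

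Interferon response genes were higher in 17 of 20 cases, 16 by at least 2-fold, and lower in 1, with a median of 2.11. Under quantile normalization none of the 20 passed the threshold, the median was 0.41, and the signs of Ifit1 and Ddx58, among others, turned. Rtp4 differed by 2.75 ± 0.50, Isg15, a ubiquitin-like modifier, by 2.67 ± 0.62, and Ifih1, a sensor of viral RNA, by 2.56 ± 0.32. Mx1, an antiviral GTPase, was the lower one at -0.89 ± 0.28 (adjusted p = 0.0264, limma), and leaving out 1 library raised its adjusted p to as much as 0.0712.

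One animal stood out for these genes in both fractions. The list's median was 2.68, 3.44, 2.30 and 2.27 in TRAP, against 0.25, 0.88 and 0.28 in input. Animal 215 was thus highest in TRAP and in input. Ifit3, an antiviral protein, had TRAP values of 2.73, 4.16, 2.71 and 2.51, against 0.16, 1.35 and 0.18 in input. Its difference was 2.47 ± 0.47 (adjusted p = 0.00287, limma). Within animals the list's median difference was 2.13 in animal 214, 2.51 in animal 215 and 1.61 in animal 523.

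Class I antigen presentation genes were all higher, 13 of 13, with a median of 1.61. Under quantile normalization, however, none was higher, 1 was lower, 6 of them turned sign and the median was 0.09. B2m, the invariant chain, had TRAP values of 3.13, 3.20, 2.72 and 2.60, against 0.69, 0.57 and 0.35 in input, a difference of 2.38 ± 0.22. The immunoproteasome subunits Psmb8 and Psmb9 differed by 2.53 ± 0.27 and 2.37 ± 0.32. Heavy chain genes have close paralogs whose reads can be assigned to either, so H2-M3, at 2.22 ± 0.61, is uncertain.

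Of 15 complement genes, 8 were higher and 1 was lower, against 31.1% and 29.8% of all genes tested. Under quantile normalization 2 were higher and 2 were lower, and 1 gene called higher turned sign. C4b had TRAP values of 4.45, 4.50, 3.84 and 3.91, against 1.53, 1.43 and 1.25 in input, a difference of 2.78 ± 0.53 (adjusted p = 0.00304, limma). All 7 old libraries lay more than 1 unit above the baseline. Serping1, the C1 inhibitor, differed by 2.51 ± 0.27, and C1ra, a C1 protease, by 2.24 ± 0.36. C1qa, C1qb and C1qc, the recognition subunits that microglia make, did not pass the threshold. Cd59a, the membrane inhibitor of lysis, was lower at -0.63 ± 0.11.

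Few microglia genes passed the threshold. Of 17 genes, 1 was higher and none was lower, and the median was -0.03. Under quantile normalization none was higher, 5 were lower and the median was -0.82. The higher one was Csf1r, the receptor that keeps microglia alive, with TRAP values of 1.14, 0.49, 1.33 and 1.21, against 0.10, -0.07 and 0.09 in input, a difference of 1.00 ± 0.19 (adjusted p = 0.00298, limma). The list's median was 1.14, -0.39, 0.58 and 0.49 in TRAP, against 0.54, 0.19 and 0.22 in input. Animal 214 was highest and animal 215 was lowest in TRAP, which is not the order of the Müller glia genes. A median near 0 does not show that the fractions are alike for these genes, and whether tagged cells made the transcripts was not tested.

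Of 10 endothelial genes, 2 were higher and 3 were lower, shares near those of all genes (31.1% and 29.8%), and under quantile normalization none was lower. The higher ones were the receptors of vascular endothelial growth factor, Flt1 at 2.70 ± 0.19 and Kdr at 2.59 ± 0.16. Kdr had TRAP values of 2.89, 2.83, 2.52 and 2.52, against 0.09, 0.03 and 0.19 in input. The junction genes Cldn5 and Esam were lower at -0.66 ± 0.14 and -1.28 ± 0.25. Of 9 mural genes, 5 were higher (3 without the TRAP library of any 1 animal or the input of animal 215, and 1 under quantile normalization) and 2 were lower (1 without the input of animal 214 or 215), with Pdgfrb, the receptor of pericytes, highest at 2.66 ± 0.17. Of 5 oligodendrocyte genes, 1 was higher and 1 was lower, and leaving out 1 library gave up to 2 in a direction. Cnp, a myelin enzyme, was higher at 2.71 ± 0.19, and Mbp, myelin basic protein, was lower at -0.65 ± 0.10. Hba-a1 and Hba-a2, near-identical haemoglobin genes of red blood cells, were lower at -2.31 ± 0.27 and -2.64 ± 0.32.

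Of 4 fibroblast genes, 3 were higher (1 under quantile normalization), with Col1a1, a fibrillar collagen, highest at 1.95 ± 0.20. Of 5 lens genes, 2 were higher, against 31.1% of all genes tested, and Crybb1, a crystallin, was the higher of them at 1.70 ± 0.20. Leaving out the TRAP library of animal 214 or 215, or the input of animal 214 or 523, left 1 higher, and quantile normalization left none.

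Junction and matrix genes were mostly higher. Of 16 junction genes, 13 were higher and 2 were lower (9 and 1 under quantile normalization). Cgn, the tight junction protein cingulin, had TRAP values of 4.04, 4.17, 4.14 and 4.55, against 0.16, -0.21 and -0.09 in input, a difference of 4.27 ± 0.30 (adjusted p = 7.56e-05, limma). Animal 214 was the lowest TRAP library, as for the pigment epithelium genes, but animal 523 and not 521 was the highest. Gja1, connexin 43 of glial gap junctions, differed by 3.04 ± 0.27, and Ocln, occludin, was lower at -1.01 ± 0.12. Crb1, which holds the outer limiting membrane together, differed by 1.09 ± 0.12.

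Of 20 matrix genes, 14 were higher and 3 were lower, against 31.1% and 29.8% of all genes tested. Under quantile normalization 10 were higher and 1 was lower, and 1 called gene turned sign. Nid2 and Lamb2, parts of the basal lamina, differed by 3.20 ± 0.34 and 2.84 ± 0.18, and Sparc, a matrix glycoprotein, by 2.62 ± 0.18. Tnc, tenascin C, was lower with TRAP values of -2.10, -2.15, -1.61 and -1.37, against -0.01, 0.03 and 0.01 in input, a difference of -1.82 ± 0.22. Among 11 trophic factors, 6 were higher and 2 were lower, against the same shares of all genes. Without the TRAP library of animal 215 or any 1 input library, 1 was lower, and under quantile normalization 3 were higher and none was lower. Cntf, the ciliary neurotrophic factor, differed by 2.32 ± 0.35, Tgfb2 by 1.58 ± 0.13 and Fgf2 by 1.42 ± 0.30. Igf1, insulin-like growth factor, was lower at -0.67 ± 0.14.

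Of 7 nuclear-retained noncoding genes, 3 were lower and none was higher, against 29.8% and 31.1% of all genes tested. Without the TRAP library of animal 214 and with library weights, 1 was higher and 3 were lower, and under quantile normalization 1 was higher and 1 was lower. Malat1 had TRAP values of -1.77, -1.99, -1.26 and -1.45, against -0.27, -0.32 and 0.34 in input, a difference of -1.55 ± 0.24 (adjusted p = 0.00104, limma). Kcnq1ot1 differed by -0.87 ± 0.10 and Neat1 by -0.56 ± 0.16, with an adjusted p of 0.0988 with the animal as a fixed block. Over all genes typed as other noncoding RNA in the tables, 16.8% of 625 were higher and 30.6% were lower, against 31.9% and 29.8% of 13631 protein-coding genes.

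Beyond the lists, genes were named by size of the difference among those with a low residual spread and no overlap between fractions. Both traits were thus set by the choice of genes. The higher ones included, from the top, Cgnl1 (4.07 ± 0.25), Timp3 (3.01 ± 0.15), Itgb8 (2.99 ± 0.16), Met (2.84 ± 0.16), Trpv4 (2.84 ± 0.16), Cav1 (2.82 ± 0.16), Arsi (2.79 ± 0.14), Paqr6 (2.78 ± 0.15), Prelp (2.72 ± 0.15), Rai1 (2.71 ± 0.16) and Abhd2 (2.62 ± 0.14). Cgnl1, the junction protein paracingulin, had TRAP values of 3.89, 4.01, 4.00 and 4.18, against -0.13, 0.03 and -0.06 in input (gene 68178, chromosome 9 from 71626509 to 71771602). Timp3, an inhibitor of matrix proteases that pigment epithelium also secretes, had TRAP values of 3.02, 3.11, 3.04 and 2.85, against -0.01, 0.01 and -0.02 in input. These libraries lay within 0.3 of each other in each fraction. Met is the receptor of hepatocyte growth factor, Trpv4 a channel that senses swelling, Cav1 the coat protein of caveolae, and Itgb8 an integrin that activates latent TGF-β.

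The 12 lower ones were Lhx1, Zfp169 (-2.01 ± 0.15), Tfap2a, Slitrk4 (-1.71 ± 0.14), Yod1 (-1.70 ± 0.13), Fut9 (-1.62 ± 0.13), Zfp773 (-1.59 ± 0.11), Nptx2 (-1.57 ± 0.13), C1ql3 (-1.57 ± 0.13), Megf11 (-1.56 ± 0.13), Rgs9bp and Ranbp6 (-1.56 ± 0.12). Several are genes of neurons. Slitrk4 is a synaptic adhesion protein, Nptx2 a pentraxin that gathers AMPA receptors, C1ql3 a secreted synaptic organiser, and Megf11 sets the spacing of horizontal and starburst cells in mouse. Zfp169, a zinc finger protein, had TRAP values of -1.89, -1.95, -1.95 and -1.71, against 0.23, -0.06 and 0.24 in input.

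**Figure D4:**
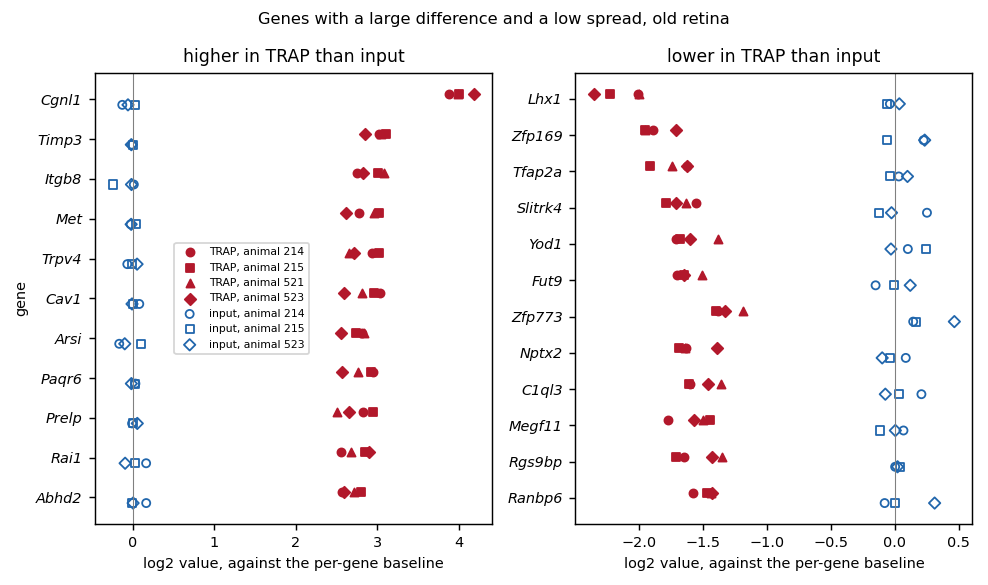
Log2 values in each old library of the genes named here for a large TRAP minus input difference and a low residual spread, with TRAP as filled red and input as open blue symbols and 1 shape per animal. Genes were drawn only if every TRAP library lay on the far side of every input library. The higher genes reach 4.18 in Cgnl1 and the lower ones reach -2.35 in Lhx1.

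Without the limit on spread, and so chosen after their values were seen, the largest differences were those of Pon1, paraoxonase, at 4.63 ± 0.38, Kcnj13, and Slc6a20a, an amino acid transporter, at 4.41 ± 0.58. Pon1 had TRAP values of 3.48, 3.85, 4.74 and 4.40, against -0.87, -0.77 and 0.05 in input, again lowest in animal 214 and highest in animal 521. Oca2, a melanosome protein, differed by 4.39 ± 0.72. The lowest called difference was that of Opn1sw.

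Among protein-coding genes, the transcripts of those at least 2-fold higher had a median length of 3282.5 bases, against 3604 bases for those at least 2-fold lower and 3218.5 bases for all others. The median GC content was 51.8% for the higher genes, against 49.7% for the lower genes and 50.1% for all others.

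The last question was whether the enrichment differed with age. The young TRAP library of animal 1386 stood apart: the Müller glia median was 2.42 in animal 1382, 2.72 in animal 1383 and 0.59 in animal 1386, and the rod median was -1.27, -1.08 and 0.06. The same animal also differed in sex from all the others by Ddx3y, a Y-linked helicase, with 7.37 in its TRAP library and values no higher than 0.40 in the other TRAP libraries. Values are therefore given with and without it.

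No gene passed the threshold for a difference between ages in TRAP minus input (0%), with a lowest adjusted p of 0.132 by limma over all 13 libraries. With no adjustment, 953 genes had a p under 0.05, of which 431 had a larger difference in old mice and 522 a smaller one. Without both libraries of animal 1386, no gene passed either, with a lowest adjusted p of 0.148. Weights estimated for each library gave 1432 genes whose difference was larger in old mice and 1232 whose difference was smaller, and leaving out the young TRAP library of animal 1383 gave 19 and 40. A p that misses the threshold does not show that the ages are alike, and each age has only 3 input libraries.

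List medians of the TRAP minus input difference were set side by side at both ages, with no test of a list. The Müller glia median was 2.60 in old mice, against 1.89 in young mice or 2.59 without animal 1386. For the pigment epithelium it was 3.21 in old mice, against 2.94 or 3.22 in young mice. Reactive gliosis had 2.62 in old mice, against 1.95 or 2.46 in young mice, and the interferon response had 2.11, against 1.40 or 1.76. Class I antigen presentation had 1.61 in old mice, against 0.80 or 1.05 in young mice, and the 4 fibroblast genes had 1.58, against 0.77 or 0.91.

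Microglia genes had the widest gap of the larger lists, with -0.03 in old mice, against -1.75 in young mice or -1.51 without animal 1386. Ctss, a cathepsin of microglia, had TRAP values of 1.56, -0.10, 0.95 and 0.45 in old mice, against -2.30, -2.60 and -2.93 in young mice (animals 1382, 1383 and 1386). Its input values were 0.73, 0.19 and 0.22 in old mice, against -0.19, -0.39 and -0.19 in young mice. The old minus young gap in its difference was 2.68 ± 0.43 (adjusted p = 0.144, limma). Gpr34, a receptor of microglia, had a gap of 4.32 ± 0.66, and its lowest young TRAP value, shared by 2 libraries, was -5.10. A shared lowest value may be a floor, which was not tested, so the size of this gap is uncertain.

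By the smallest p, Grik3, a kainate receptor subunit, had a larger difference in old mice beside Gpr34 and Ctss, though not past the threshold. It had TRAP values of 2.36, 2.48, 2.04 and 1.92 in old mice, against -0.36, -0.33 and -0.34 in young mice, and input values of 0.94, 0.84 and 0.87 in old mice, against -0.25, 0.05 and -0.21 in young mice. Its old TRAP libraries lay above the young ones, and its old input libraries did so as well. The gap was 1.53 ± 0.22 (adjusted p = 0.132, limma), but quantile normalization turned it to -0.71. In the other direction stood Dnahc1, a ciliary dynein, at -1.37 ± 0.19, the pseudogene Smarca5-ps at -0.82 ± 0.14 and the noncoding Snhg10 at -1.39 ± 0.27 (adjusted p = 0.132, 0.153 and 0.284, limma).

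**Figure D5:**
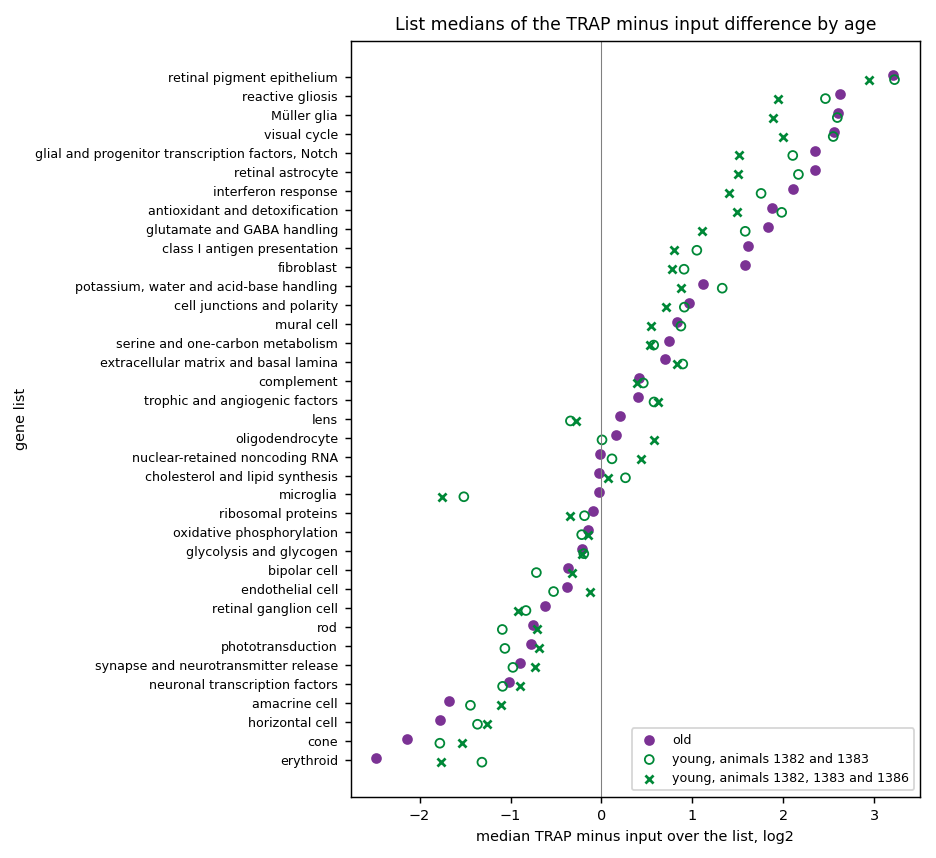
Median TRAP minus input difference, in log2, of every gene list in old mice (filled purple), in young mice without animal 1386 (open green) and in all 3 young mice (green crosses). Lists are sorted by the old value. The microglia list lies at -0.03 in old mice, against -1.51 and -1.75 in young mice, while the Müller glia list lies at 2.60 in old mice and within 0.1 of that in young mice without animal 1386.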

How the data were processed

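RNA-seq values of 13 libraries were used, 1 per animal and fraction, grouped by the labels' age and fraction. The values the authors deposited are normalized log2 levels against a per-gene baseline, with TRAP and input in separate tables. Per the file headers, both tables come from 1 experiment, genes follow RefSeq models, and a gene was kept where every sample of at least 1 condition had a raw value of 5 or more. Per the submitters' processing notes, DESeq and mm10 were used, in roles they do not state. Aligner, read counter and base of the logarithm are likewise not given in the sources used here. The base was read from the values: 20 genes shared 1 difference between the first 2 old input libraries, 10 differed from it by 1 and 2 by the natural logarithm of 2. Of all genes, 62.3% had 2 input values that mirror each other around 0 (tolerance 2e-05), against 0.0209% in TRAP. Centring on the median of only the 6 input libraries used would mirror a pair in nearly every gene. Which libraries the baseline was taken over is therefore unknown. Depth is unknown, so no counting intervals are given. In the input table, 1 column matches no label and was not used.

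TRAP and input were joined on gene ID (14384 genes; 448 were in the TRAP table alone and 348 in the input table alone). Old libraries were fitted in limma 3.58.1 (R 4.3.3) with fraction as the term, the animal as a random block (within-animal correlation 0.0682) and empirical Bayes with a trend. The trend is on each gene's mean of values set against a baseline, which moves with the difference and is not a level of abundance. Every SE and adjusted p carries it. Without a trend, 4382 genes were higher and 4171 were lower. P-values are two-sided and Benjamini-Hochberg adjusted over all genes, with a threshold of 0.05, and every adjusted p in the text is from limma. The pairing comes from the labels, which give both fractions the same animal number. TRAP and input deviations from the group means correlated across genes at 0.121, 0.108 and 0.0569 in animals 214, 215 and 523. The difference between ages was tested as the interaction of age and fraction over all 13 libraries. The fits were tested on simulated data.

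Named genes are up to 12 per direction with the largest difference among genes past the threshold, with no overlap between fractions, no predicted symbol and a residual SD under the median (1799 higher and 2308 lower genes met this), then list members with the largest differences and the 3 genes per direction with the smallest p between ages. Members and lists were chosen with earlier results of these data known, and some lists share genes. Alternatives were other scalings, blocks, weights, filters and leaving out each library. Leaving out animal 1386 was chosen after seeing the data. Some list members are counted but not reported by name here.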

Additional observations from a re-analysis of the deposited data

Results flagged for a closer look

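In 202 groups of 4 old TRAP libraries, 3 had a library far from the other 3, and chance flags about 1 in 20 groups. Ifit3 was far above the others in animal 215, at 4.16. Slc18a3 was far above the others in animal 523, at -1.14. The median of the oligodendrocyte list was far below the others in animal 214, at -0.12.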

How the results depend on the processing

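The 4474 higher and 4286 lower genes became 4383 and 4180 with no replicate block, and 4022 and 3734 with the animal as a fixed block, which drops animal 521. The fit with a fixed block changed calls of the main fit among the genes named only for Opn1sw, Gngt2, Onecut1, H2-M3, Neat1 and Shmt1. Quantile normalization, which by construction gives input and TRAP libraries 1 spread, gave 1950 higher and 1887 lower genes, 919 of them at least 2-fold higher. A minimum fold of 1.5 in the test gave 1901 and 753 genes. Leaving out noisy genes, those with an old input SD at or above the 75th percentile, gave 3432 higher and 3882 lower genes. It gave 1137 at least 2-fold higher, against 2019 in the main fit. That filter kept 16 of the 18 Müller glia genes. It kept 2 of 13 pigment epithelium, 3 of 20 interferon response and 6 of 16 reactive gliosis genes. Leaving out 1 library gave 3994 to 4519 higher, 3577 to 4222 lower, 1910 to 2089 at least 2-fold higher and 761 to 1027 at least 2-fold lower genes. For the difference between ages it gave 0 to 19 larger and 0 to 40 smaller ones, the most without the young TRAP library of animal 1383. Without the old TRAP library of animal 215, 4 were larger and 1 was smaller. Library weights gave 1432 larger and 1232 smaller, quantile normalization gave 75 and 131, and a fit without a trend gave 1 and 1. The causes were not tested. Quantile normalization turned Best1 to -0.94, Car2 to -0.013, Ddx58 to -0.18, Ifit1 to -0.29, Slc12a2 to -0.018, Socs3 to -0.030 and Stat3 to -0.16, and the Grik3 gap between ages to -0.71. No other gene given with an old TRAP minus input difference changed sign under any alternative run. Without reads or depths, genes with few reads cannot be set apart from well-measured ones.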

Other observations

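Some genes of the lists passed the authors' filter on raw values in the TRAP table alone, so they have a level against the baseline in old TRAP libraries but no difference from input here. Timp1, an inhibitor of matrix proteases made by reactive astrocytes, had 5.74, 4.39, 4.63 and 4.15 in animals 214, 215, 521 and 523. Cxcl10, an interferon-induced chemokine, had 3.58, 4.26, 3.89 and 4.56, and Sox10, a factor of oligodendrocytes, had 2.17, 3.13, 3.29 and 3.45. Genes that passed only through TRAP had to be high there, so their height over the baseline is a description.

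The interferon-induced enzyme Oas1a had 2.60, 4.60, 1.38 and 1.43 in old TRAP, with animal 215 highest as in the interferon genes of both tables. Nlrc5, which drives class I genes, had 3.70, 3.03, 2.53 and 2.39, with animals 214 and 215 above the others. Gjb6, connexin 30, had 2.84, 2.85, 1.37 and 1.94. The lens crystallin Crygs had 0.16, 0.10, 0.16 and -1.93, with animal 523 far below the others.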
